A study of Mus musculus with 9 samples.

Results

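The Nduf genes encode the nuclear-encoded proteins of respiratory complex I, the NADH:ubiquinone oxidoreductase of the inner mitochondrial membrane, together with assembly factors named after it. They were taken as every gene whose symbol in the platform's probe-gene table starts with Nduf, each read from its brightest probe set, meaning that of highest average across the 9 arrays without regard to group. Probe sets that list several genes were not assigned to any of them, so the Nduf symbols found only on such probe sets, those of the subunits Ndufa11 and Ndufs6 among them, were not counted. The rule found 44 genes among the 18193 genes measured. Of these, 34 are structural subunits and 8 are the assembly factors Ndufaf1 to Ndufaf8. The remaining 2, Ndufa4 and Ndufa4l2, were counted apart, because the Ndufa4 protein is known as a component of complex IV and Ndufa4l2 is its paralog. The RNA came from the myocardium of the right ventricle of C57BL6J males, 6 to 8 weeks old, with 5 arrays from the banding group and 4 from the sham group. Pulmonary banding narrows the outflow of the right ventricle with a band and raises the pressure it must pump against, and the sham mice were operated without it. Both groups were wild type and were killed under isoflurane. The labels leave unsaid whether replicates were different animals, and the p-values then rest on the variation among these arrays, which may be technical. Neither the time since surgery nor an array batch is given in the sources used here.

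Complex I takes electrons from NADH, passes them along a flavin and a chain of iron-sulphur clusters to ubiquinone, and pumps protons out of the matrix. Heart muscle meets most of its energy demand by mitochondrial oxidation and is rich in this enzyme. Core subunits, conserved from bacteria, carry the catalytic sites. Accessory subunits surround them, and assembly factors help to join the peripheral arm (the N module that oxidises NADH and the Q module that reduces ubiquinone) to the membrane arm and then leave the finished enzyme.

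Nearly all of these transcripts were less abundant in banded ventricles. Among the structural subunits 32 of 34 fell, 0 rose and 2 did not pass the test, and all 8 Ndufaf assembly factors fell. The test was limma's moderated comparison over all 18193 genes with Benjamini-Hochberg adjustment, and a gene passed at an adjusted p under 0.05. By that rule 38.4% of all genes passed in either direction, with 20.0% of all genes lower and 18.4% of all genes higher in banding. All values are log2 expression as deposited, and every difference is banding minus sham on that scale, so that a difference of -1 is a 2-fold fall. The median difference was -0.66 over the structural subunits and -0.98 over the assembly factors, beside 0.00 over all genes tested. In each of the 41 Nduf genes that fell, every banding array lay below every sham array, which held for 19.3% of all genes (36.7% had no overlap in either direction). The gap between the highest banding and the lowest sham array ran from 0.11 to 0.91 over these 41 genes.

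**Figure D1:**
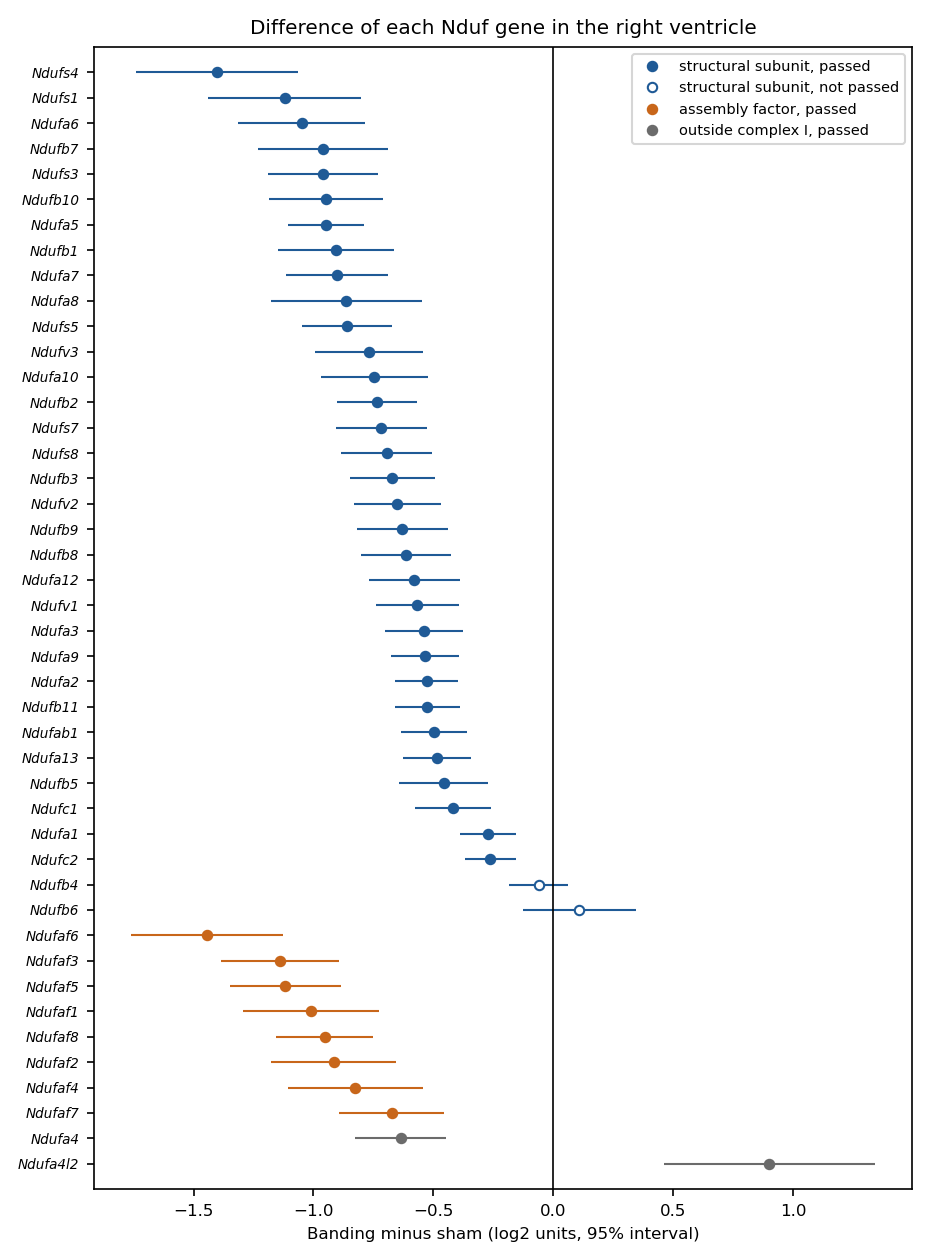
Banding minus sham difference in log2 units (horizontal axis) for each of the 44 Nduf genes, with 95% intervals from the limma fit; blue points are structural subunits, orange points assembly factors and grey points Ndufa4 and Ndufa4l2, and open points did not pass. Differences of the structural subunits span -1.40 (Ndufs4) to 0.11 (Ndufb6), those of the assembly factors -1.44 (Ndufaf6) to -0.67 (Ndufaf7), and Ndufa4l2 at 0.90 is the 1 gene that rose.

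Promoters were examined because so many members were lower together. RefSeq windows of GRCm38.p6, from 250 bases before to 50 after a gene's start, were at hand for 39 of the 44 genes. Each motif was searched on both strands and its frequency set beside that over 27025 genes with a window. The YY1 motif AAGATGGCG was found for 5 of 39 genes (12.8%), namely Ndufa9, Ndufaf8, Ndufc1, Ndufs4 and Ndufs7, against 1.64% of all genes. The NRF1 motif GCGCATGCG was found for 3 (7.69%), namely Ndufa8, Ndufaf4 and Ndufaf5, against 1.95%, and its shorter core GCATGCG for 4 (10.3%) against 4.01%. The ETS motif ACCGGAAGT was found for Ndufs3 (2.56%, against 1.21%), and its shorter core CCGGAAG for 6 genes (15.4%) against 9.93%. The oestrogen-related receptor element TCAAGGTCA was in 0 of the 39 windows and in 0.466% of all, and its shorter form AAGGTCA was in 3 (7.69%) against 5.38%. A match of letters is a description and not a binding site, and a match was found in the window of Ndufb6, which did not pass, as well as in windows of genes that fell. Printed here, 5′ to 3′ on the strand of the gene with matches in capitals, are the windows of Ndufs4 (the structural subunit with the largest difference, chr13:114388045-114388344, minus strand, YY1 at bases 286 to 294), Ndufs3 (a core subunit, chr2:90904672-90904971, minus strand, ETS forms at 224 to 230 and 251 to 259), Ndufaf5 (the assembly factor with the smallest p, chr2:140170396-140170695, plus strand, NRF1 overlapping on both strands at 267 to 276) and Ndufb6 (chr4:40279372-40279671, minus strand, ETS core at 19 to 25).
Ndufs4: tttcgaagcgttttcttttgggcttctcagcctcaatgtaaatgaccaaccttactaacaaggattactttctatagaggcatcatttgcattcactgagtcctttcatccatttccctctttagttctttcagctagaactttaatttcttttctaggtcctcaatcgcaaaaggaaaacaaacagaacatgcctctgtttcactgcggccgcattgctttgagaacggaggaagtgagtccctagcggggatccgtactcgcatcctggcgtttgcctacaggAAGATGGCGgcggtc
Ndufs3: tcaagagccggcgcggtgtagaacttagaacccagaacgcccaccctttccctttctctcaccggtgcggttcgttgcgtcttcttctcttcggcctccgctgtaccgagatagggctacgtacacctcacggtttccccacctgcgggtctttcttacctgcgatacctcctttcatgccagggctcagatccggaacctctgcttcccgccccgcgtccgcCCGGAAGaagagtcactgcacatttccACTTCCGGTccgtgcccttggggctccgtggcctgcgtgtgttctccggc
Ndufaf5: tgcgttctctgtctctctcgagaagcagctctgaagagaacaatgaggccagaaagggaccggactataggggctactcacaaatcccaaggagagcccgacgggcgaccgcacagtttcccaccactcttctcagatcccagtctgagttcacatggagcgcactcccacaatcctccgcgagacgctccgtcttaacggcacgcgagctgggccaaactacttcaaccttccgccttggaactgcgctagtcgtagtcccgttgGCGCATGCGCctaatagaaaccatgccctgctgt
Ndufb6: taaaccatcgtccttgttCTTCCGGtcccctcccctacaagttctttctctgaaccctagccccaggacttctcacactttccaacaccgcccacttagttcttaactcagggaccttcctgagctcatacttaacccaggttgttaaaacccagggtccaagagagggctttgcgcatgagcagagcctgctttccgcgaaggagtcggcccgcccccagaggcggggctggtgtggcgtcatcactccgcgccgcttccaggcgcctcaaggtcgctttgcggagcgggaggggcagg

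All 6 core subunits measured fell, with a median difference of -0.71. Array values are listed in replicate order, 1 to 5 for banding and 1 to 4 for sham. Ndufs1, the largest core subunit and a carrier of iron-sulphur clusters in the N module, read 13.23, 12.85, 13.06, 12.60 and 12.68 in banding, against 13.94, 14.16, 13.93 and 14.00 in sham. It fell 2.17-fold (difference -1.12 ± 0.14 SE, adjusted p = 0.000497), the largest change of the core. Ndufv1, which binds the flavin that accepts electrons from NADH, read 13.69, 13.48, 13.58, 13.37 and 13.40 in banding, against 14.05, 14.18, 13.99 and 14.08 in sham. Its fall was smaller, at 1.48-fold (-0.57 ± 0.07 SE, adjusted p = 0.000693). Ndufv2, its partner in the N module, read 14.43, 14.09, 14.33, 14.10 and 14.17 in banding, against 14.79, 14.91, 14.93 and 14.87 in sham. This was a 1.57-fold fall (-0.65 ± 0.08 SE, adjusted p = 0.000456), close to that of Ndufv1. In all 3 genes the banding arrays 1 and 3 were the nearest to sham.

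The core subunits of the Q module gave the same picture. Ndufs3 read 13.28, 12.93, 13.11, 12.84 and 12.90 in banding, against 13.98, 14.00, 14.07 and 13.84 in sham. It fell 1.94-fold (-0.96 ± 0.10 SE, adjusted p = 0.000237). Ndufs7, which holds the last iron-sulphur cluster before ubiquinone, read 14.27, 14.03, 14.22, 13.94 and 13.98 in banding, against 14.87, 14.84, 14.82 and 14.69 in sham. Its fall was 1.64-fold (-0.72 ± 0.08 SE, adjusted p = 0.000353). Ndufs8, another iron-sulphur subunit, read 14.70, 14.41, 14.61, 14.37 and 14.35 in banding, against 15.16, 15.23, 15.21 and 15.12 in sham. It fell 1.62-fold (-0.70 ± 0.08 SE, adjusted p = 0.000398). The groups did not overlap in any of the 3 genes.

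Of the 28 accessory subunits, 26 fell, 0 rose and 2 did not pass. The median was -0.62. The largest structural change of all was in Ndufs4, an accessory subunit that holds the N module in place and whose loss in mice gives a Leigh-like disease. Ndufs4 read 11.82, 11.33, 11.60, 11.18 and 11.19 in banding, against 12.73, 12.81, 12.98 and 12.78 in sham, a 2.64-fold fall (-1.40 ± 0.14 SE, adjusted p = 0.000245). Its next probe set gave a smaller fall, -0.67 ± 0.15 SE (adjusted p = 0.0123 over all probe sets). A dimmer one with a mean of 7.52 gave a larger fall, -1.99 ± 0.37 SE (adjusted p = 0.00472). The dimmest, with a mean of 2.30, did not pass. Ndufa6, an accessory protein of the N module, read 12.74, 12.28, 12.44, 12.25 and 12.22 in banding, against 13.38, 13.43, 13.58 and 13.35 in sham. It fell 2.07-fold (-1.05 ± 0.11 SE, adjusted p = 0.000302) and was, with Ndufs4 and Ndufs1, one of the 3 structural genes that fell by at least 2-fold. All 3 belong to the N module.

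Other accessory subunits of the peripheral arm followed with narrow spreads. Ndufa5, of the Q module, had the smallest p of all members. It read 14.15, 13.92, 14.09, 13.91 and 13.82 in banding, against 14.90, 14.90, 14.94 and 14.97 in sham, and fell 1.93-fold (-0.95 ± 0.07 SE, adjusted p = 6.52e-05). Ndufa7, of the N module, read 12.79, 12.44, 12.52, 12.47 and 12.41 in banding, against 13.37, 13.37, 13.61 and 13.37 in sham. Its fall was 1.87-fold (-0.90 ± 0.09 SE, adjusted p = 0.000223), and sham replicate 3 stood above the other sham arrays. Ndufa2, also of the N module, read 13.25, 13.07, 13.17, 13.03 and 13.06 in banding, against 13.72, 13.68, 13.61 and 13.55 in sham. At 1.44-fold its fall was the smallest of the 9 N module genes (-0.53 ± 0.06 SE, adjusted p = 0.000282). The other N module genes, Ndufv3 and Ndufa12, fell 1.70-fold and 1.49-fold.

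In the membrane arm, 17 of 19 genes fell, 0 rose and 2 did not pass. Ndufs5, which lies on its intermembrane-space side, read 13.20, 13.05, 13.14, 12.96 and 12.99 in banding, against 13.85, 13.89, 14.14 and 13.82 in sham. It fell 1.81-fold (-0.86 ± 0.08 SE, adjusted p = 0.000163). Ndufb2 read 13.45, 13.14, 13.27, 13.15 and 13.22 in banding, against 14.00, 14.02, 14.04 and 13.86 in sham, a 1.66-fold fall (-0.73 ± 0.07 SE, adjusted p = 0.000201). Ndufb10 read 14.01, 13.71, 13.89, 13.55 and 13.57 in banding, against 14.77, 14.67, 14.68 and 14.66 in sham, a 1.93-fold fall (-0.95 ± 0.10 SE, adjusted p = 0.000284). Ndufb10 and Ndufb7 (1.95-fold) had the largest differences in this arm. The other large falls here were in Ndufb1 (1.87-fold) and Ndufa8 (1.82-fold). Between 1.34-fold and 1.68-fold lay Ndufa10, Ndufb3, Ndufb9, Ndufb8, Ndufa3, Ndufb11, Ndufa13, Ndufb5 and Ndufc1.

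The 3 smallest falls were all in small membrane arm subunits. Ndufc2 read 14.06, 13.82, 14.00, 13.93 and 13.95 in banding, against 14.24, 14.22, 14.17 and 14.22 in sham. It fell 1.20-fold (-0.26 ± 0.05 SE, adjusted p = 0.00274), and its other bright probe sets gave larger differences, -0.54 for the next of them. Ndufa1 read 14.21, 14.03, 14.14, 14.01 and 13.97 in banding, against 14.32, 14.32, 14.38 and 14.35 in sham, a 1.21-fold fall (-0.27 ± 0.05 SE, adjusted p = 0.00363). Ndufc1 read 14.20, 14.00, 14.20, 13.98 and 13.93 in banding, against 14.51, 14.43, 14.54 and 14.44 in sham, a 1.34-fold fall (-0.42 ± 0.07 SE, adjusted p = 0.00183). Even in these genes no banding array reached the lowest sham array.

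Both structural genes that did not pass are annotated to the membrane arm. Ndufb6 read 14.07, 14.07, 14.22, 14.36 and 14.31 in banding, against 14.35, 14.11, 13.99 and 13.94 in sham. The groups overlapped, and the difference was 0.11 (95% interval -0.13 to 0.35, adjusted p = 0.471). The second probe set of Ndufb6 read 13.28, 13.04, 13.11, 13.14 and 13.16 in banding, against 13.67, 13.60, 13.58 and 13.65 in sham. It fell (-0.48 ± 0.05 SE, adjusted p = 0.000237 over all probe sets), so the probe sets of this gene disagree in sign, and with the mean of both the gene fell as well (-0.18, adjusted p = 0.0396). Ndufb4 lay at the floor of the table, 2.20, on all 5 banding arrays, against 2.20, 2.44, 2.20 and 2.20 in sham, so its probe set carries no level and no fold is given (adjusted p = 0.439). A pair of brighter probe sets lists Ndufb4 together with Ndufb4b and Ndufb4c and cannot be assigned to 1 of them. Those probe sets differed by -0.74 and -0.96.

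**Figure D2:**
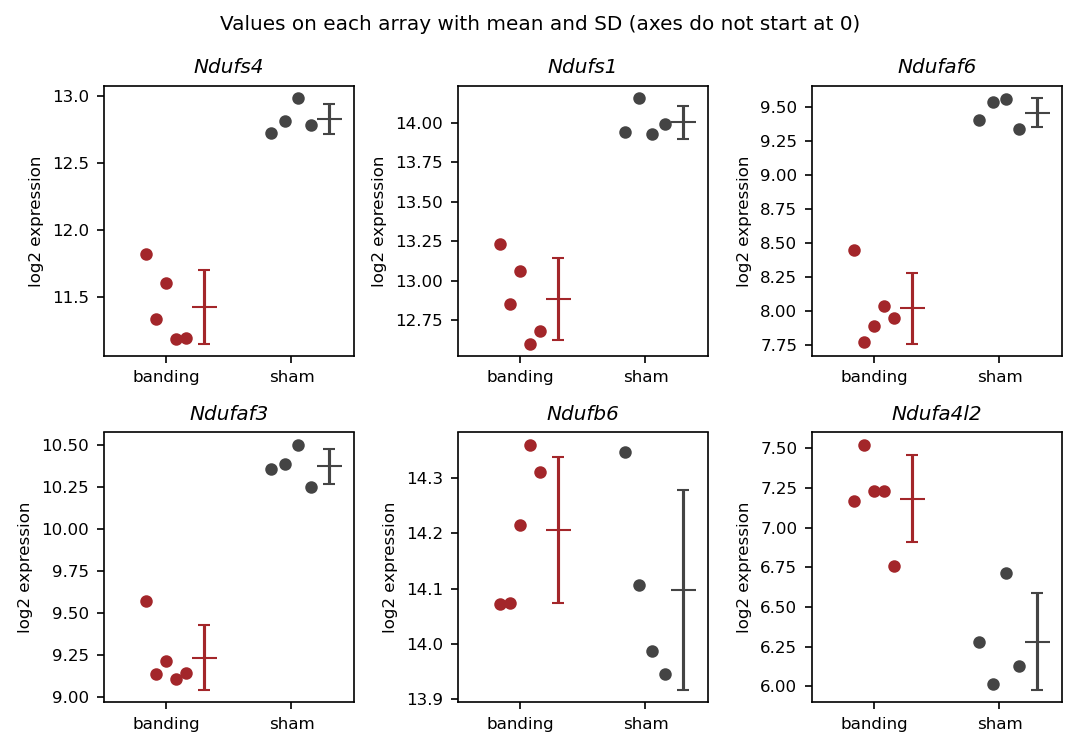
Log2 expression on each array (points) with the group mean and SD (bars) for 6 Nduf genes, banding left (5 arrays) and sham right (4 arrays), each panel with its own axis that does not start at 0. The groups are apart in Ndufs4, Ndufs1, Ndufaf6 and Ndufaf3 (lower in banding) and in Ndufa4l2 (higher in banding), and they overlap in Ndufb6.

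The assembly factors fell without exception. Ndufaf6, which is required for complex I assembly, had the largest difference of all members. It read 8.45, 7.77, 7.89, 8.04 and 7.95 in banding, against 9.40, 9.54, 9.56 and 9.34 in sham, a 2.72-fold fall (-1.44 ± 0.14 SE, adjusted p = 0.000172). Ndufaf5, which hydroxylates an arginine of Ndufs7, read 8.43, 8.05, 8.24, 8.25 and 8.30 in banding, against 9.36, 9.36, 9.59 and 9.17 in sham. It fell 2.17-fold (-1.12 ± 0.10 SE, adjusted p = 0.000138). Ndufaf8, the partner of Ndufaf5, read 10.87, 10.64, 10.56, 10.57 and 10.45 in banding, against 11.43, 11.61, 11.65 and 11.60 in sham. It fell 1.94-fold (-0.95 ± 0.09 SE, adjusted p = 0.000153). The 2 partners moved in the same direction, as did all 8 assembly factors.

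Ndufaf3 and Ndufaf4 act together on the Q module. Ndufaf3 read 9.57, 9.14, 9.21, 9.11 and 9.14 in banding, against 10.35, 10.39, 10.50 and 10.25 in sham, a 2.20-fold fall (-1.14 ± 0.10 SE, adjusted p = 0.000157). Ndufaf4 read 11.25, 10.82, 11.07, 10.76 and 10.93 in banding, against 11.99, 11.76, 11.81 and 11.59 in sham, a 1.77-fold fall (-0.83 ± 0.12 SE, adjusted p = 0.00112). In both genes banding replicate 1 was the highest of its group. Ndufaf1, which works on the membrane arm with Ecsit and Acad9, read 10.73, 10.21, 10.54, 10.20 and 10.40 in banding, against 11.42, 11.45, 11.56 and 11.28 in sham. It fell 2.01-fold (-1.01 ± 0.12 SE, adjusted p = 0.000465).

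Ndufaf2, a late factor related in sequence to Ndufa12, read 8.76, 8.61, 8.76, 8.73 and 8.64 in banding, against 9.42, 9.49, 9.97 and 9.58 in sham. It fell 1.89-fold (-0.92 ± 0.11 SE, adjusted p = 0.000486). Ndufaf7, a methyltransferase that modifies a core subunit, read 8.44, 8.36, 8.32, 8.46 and 8.66 in banding, against 9.15, 9.13, 9.30 and 8.91 in sham. At 1.60-fold its fall was the smallest of the 8 (-0.67 ± 0.09 SE, adjusted p = 0.000904). Assembly factors named otherwise were described alongside. Of 10 measured, 8 fell, 0 rose and 2 (Timmdc1 and Dmac1) did not pass. Their median was -0.87. Timmdc1 read 7.78 on all 5 banding arrays and on sham replicates 3 and 4, against 7.96 and 7.86 on sham replicates 1 and 2. A probe set with so constant a value says little about the level of that gene. Ecsit fell 2.59-fold (-1.37 ± 0.10 SE, adjusted p = 6.66e-05), Foxred1 2.01-fold (adjusted p = 0.00028), Nubpl, which delivers iron-sulphur clusters, 1.98-fold (adjusted p = 0.000686) and Acad9 1.65-fold (adjusted p = 0.000184).

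The assembly factors had larger differences than the structural subunits in the median, -0.98 against -0.66, while the ranges of both classes overlapped. A fall of 2-fold or more was seen in 4 of 8 assembly factors and 3 of 34 structural genes, against 5.82% of all genes and 9.46% of genes above the dim level of 4.20 (2 log2 units above the floor), so that the structural share lies near the background. Relative to the sham mean of each gene, the mean over the assembly factors was -0.78, -1.14, -1.02, -1.08 and -1.03 on banding arrays 1 to 5, and the mean over the structural subunits without Ndufb4 was -0.48, -0.76, -0.61, -0.79 and -0.79. The assembly factor mean was thus the lower of the pair on each of the 5 banding arrays. This contrast was not tested, because members of a list are not replicates. The classes also differed in signal range. All 8 assembly factors had means from 8 to under 12, where 37.6% of 5155 genes fell, and 32 structural subunits had means of 12 or more, where 45.0% of 655 genes fell, against 31 of these 32. Both limits were set after the values were seen, and the part of the signal range in the contrast was not tested. The 1 structural gene in the lower range, Ndufb1, differed by -0.91.

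Several probe sets stood behind many of the genes. Of 88 probe sets that name a single Nduf gene, 75 fell, 1 rose and 12 did not pass, against 16.1% lower and 15.3% higher among 34945 such probe sets. Of the 12, 6 lay below the dim level. Above that level, Ndufab1 had probe sets with means of 9.41, 6.95 and 5.59 that did not pass (-0.64, -0.76 and -0.41). Its brightest probe set, which was used for the gene, fell (-0.50), and so did one with a mean of 6.16 (-1.25). For 20 structural genes at least 2 probe sets lay above that level. The second-brightest had the more negative difference in 16 of these 20 genes, with a median of -0.67, against -0.62 for the brightest. The largest gap was in Ndufa10, at -1.53 for the second probe set and -0.75 for the first. Sizes of single genes therefore varied with the probe set, while the sign differed between the first and second only for Ndufb6. A further 10 probe sets list a Nduf gene together with another gene and were not assigned, and 6 of them fell.

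**Figure D3:**
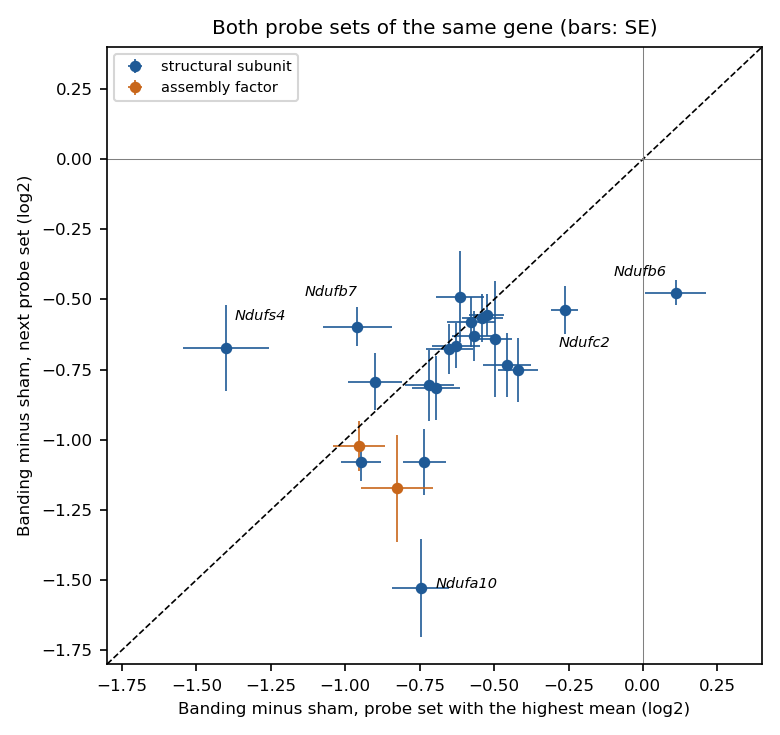
Banding minus sham difference (log2, bars are SE) of the probe set with the highest mean (horizontal axis) and of the next probe set (vertical axis) of the same gene, for 20 structural subunits (blue) and 2 assembly factors (orange) with at least 2 probe sets above the dim level; the dashed line marks equal differences. In 16 of the 20 structural genes the point lies below the line, and only Ndufb6 lies right of 0.

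Ndufa4 and Ndufa4l2 moved in opposite directions. Ndufa4 read 14.18, 13.79, 13.94, 13.81 and 13.81 in banding, against 14.49, 14.56, 14.57 and 14.54 in sham. It fell 1.55-fold (-0.64 ± 0.08 SE, adjusted p = 0.000624), within the range of the structural subunits. Ndufa4l2, which is known as a target of the hypoxia-inducible factor HIF-1, read 7.17, 7.52, 7.23, 7.23 and 6.76 in banding, against 6.28, 6.01, 6.71 and 6.13 in sham. It rose 1.87-fold (0.90 ± 0.19 SE, adjusted p = 0.0064) and was the only Nduf gene that rose. The gap was narrow, since the lowest banding array (6.76) lay just above the highest sham array (6.71).

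The arrays of the banding group were not alike. Banding replicate 1 was the highest banding array in 36 of the 41 genes that fell, and banding replicates 2, 4 and 5 were the lowest in 11, 15 and 14 of them. In sham, replicate 3 was the highest in 30 of the 41 genes. The SD within banding exceeded that within sham in 36 of the 41 genes, with median SDs of 0.150 and 0.087. On the same arrays the ventricular cardiomyocyte markers averaged -0.07, -0.22, -0.14, -0.27 and -0.25 relative to their sham mean on banding replicates 1 to 5, so replicate 1 was again nearest to sham. The regulators described below averaged -0.36, -0.63, -0.51, -0.69 and -0.93. Macrophage markers averaged 0.99, 1.29, 1.34, 1.15 and 1.61, again nearest to sham on replicate 1. Fibroblast markers averaged 2.39, 2.54, 2.36, 2.35 and 2.27 and did not follow this order. The part of these lists in the standing of replicate 1 was not tested. Without banding replicate 1 the same numbers of structural subunits (32) and assembly factors (8) fell.

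**Figure D4:**
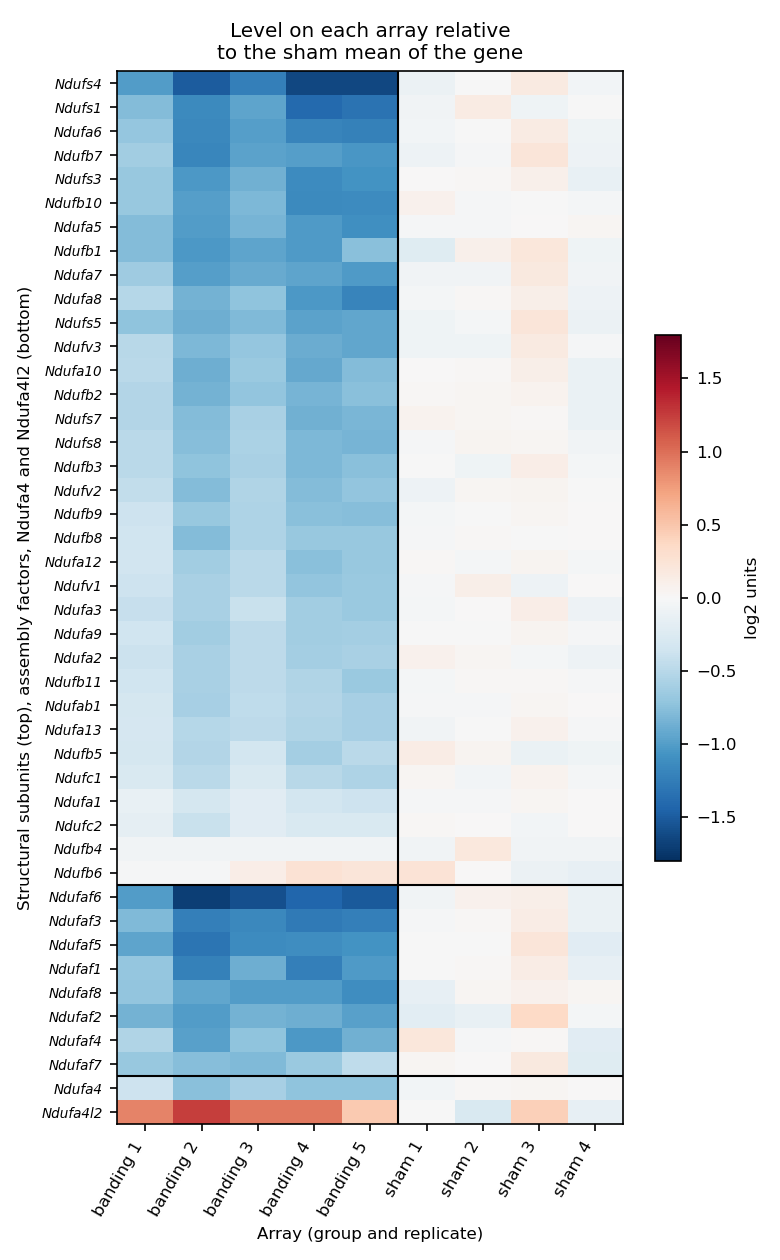
Log2 expression of each Nduf gene (rows, structural subunits above, then assembly factors, then Ndufa4 and Ndufa4l2) on each of the 9 arrays (columns, 5 banding left and 4 sham right) relative to the sham mean of the gene; blue is lower and red higher, in log2 units. The banding columns are blue in all rows but Ndufb4, Ndufb6 and Ndufa4l2, and banding 1 is the palest of them in most rows.

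These are whole-tissue samples, in which fewer cells of a type and less RNA per cell cannot be told apart. Of 12 ventricular cardiomyocyte markers, 6 fell, 1 rose and 5 did not pass. The median was -0.18, and their summed linear signal, given as log2, was 18.73 to 18.92 in banding against 18.97 to 19.03 in sham. All 8 fibroblast markers rose (summed signal 17.24 to 17.48 in banding, 14.93 to 15.09 in sham), as did 7 of 8 macrophage markers (13.92 to 14.52 in banding, 12.91 to 13.22 in sham), 5 of 7 endothelial markers (14.97 to 15.26 in banding, 14.77 to 15.00 in sham) and 5 of 6 smooth muscle markers (14.54 to 14.95 in banding, 13.94 to 14.12 in sham). The part of cell composition in the falls of the Nduf genes was not tested. None of 4 brown adipocyte markers passed, and the defining marker Ucp1 lay below the dim level in both groups. All 10 liver markers fell. Their summed signal was 6.53 to 9.86 in banding against 13.29 to 16.91 in sham, with sham replicate 4 the highest of sham and banding replicate 5 the highest of banding. Without both of these arrays, an alternative added after seeing the data, 32 structural subunits and 8 assembly factors fell, as with them. On the arrays left in that fit, liver markers averaged -0.21, -0.64 and -1.55 relative to their sham mean on sham replicates 1 to 3. They averaged -6.94, -6.87, -7.28 and -7.35 on banding replicates 1 to 4. The liver signal thus still differed between the groups in that fit, and its part in the Nduf falls was not tested.

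Other mitochondrial genes are set beside the members for scale. Of 40 subunits of complexes II to V, 35 fell, 0 rose and 5 did not pass. Their median was -0.46. The smallest p values there belonged to Cox7c (1.67-fold lower, adjusted p = 0.000217), Atp5e (1.73-fold lower, adjusted p = 0.000283), Atp5g2 (1.69-fold lower, adjusted p = 0.000302) and Uqcr10 (1.70-fold lower, adjusted p = 0.000304). Of 76 mitochondrial ribosomal protein genes 74 fell and 0 rose, with a median of -0.84. Of 14 genes of import, porins, prohibitins and chaperones, 12 fell, 0 rose and 2 (Tomm20 and Tomm70a) did not pass. The median here was -0.58. Among them Immt, an organiser of cristae, fell 1.62-fold (adjusted p = 7.02e-05). The import genes Timm50, Timm44 and Timm23 fell 1.78-fold (adjusted p = 0.000141), 1.88-fold (adjusted p = 0.000179) and 1.86-fold (adjusted p = 0.000259). Falls were thus not particular to complex I in these counts, and no difference between the lists was tested.

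Transcription factors and coactivators known to control respiratory genes were also measured. Of 11, 7 fell, 1 rose and 3 did not pass. Ppargc1a, which encodes the coactivator PGC-1alpha, read 10.35, 9.36, 9.67, 9.16 and 8.88 in banding, against 11.01, 10.83, 10.60 and 10.51 in sham. It fell 2.39-fold (-1.25 ± 0.29 SE, adjusted p = 0.0108), and its banding replicate 1 lay nearest to sham. Esrra, an orphan receptor that works with PGC-1alpha, fell 2.09-fold (-1.06 ± 0.12 SE, adjusted p = 0.000399). Its relatives Esrrg and Esrrb fell 1.94-fold (adjusted p = 0.000423) and 3.24-fold (adjusted p = 0.00759). Ppara, a receptor that drives fatty acid oxidation genes, fell 2.25-fold (adjusted p = 0.0166), and Ppargc1b fell 1.63-fold (adjusted p = 0.01). Tfam, which acts in the transcription and packaging of mitochondrial DNA, fell 1.45-fold (adjusted p = 0.00341). Yy1, a zinc finger factor, read 10.86, 10.86, 10.97, 11.31 and 11.12 in banding, against 10.36, 10.48, 9.87 and 10.55 in sham, and rose 1.63-fold (0.71 ± 0.16 SE, adjusted p = 0.00959). Nrf1 (-0.26 ± 0.21 SE), Gabpa (-0.07 ± 0.07 SE) and Gabpb1 (0.13 ± 0.12 SE) did not pass, with adjusted p of 0.428, 0.463 and 0.48.

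**Figure D5:**
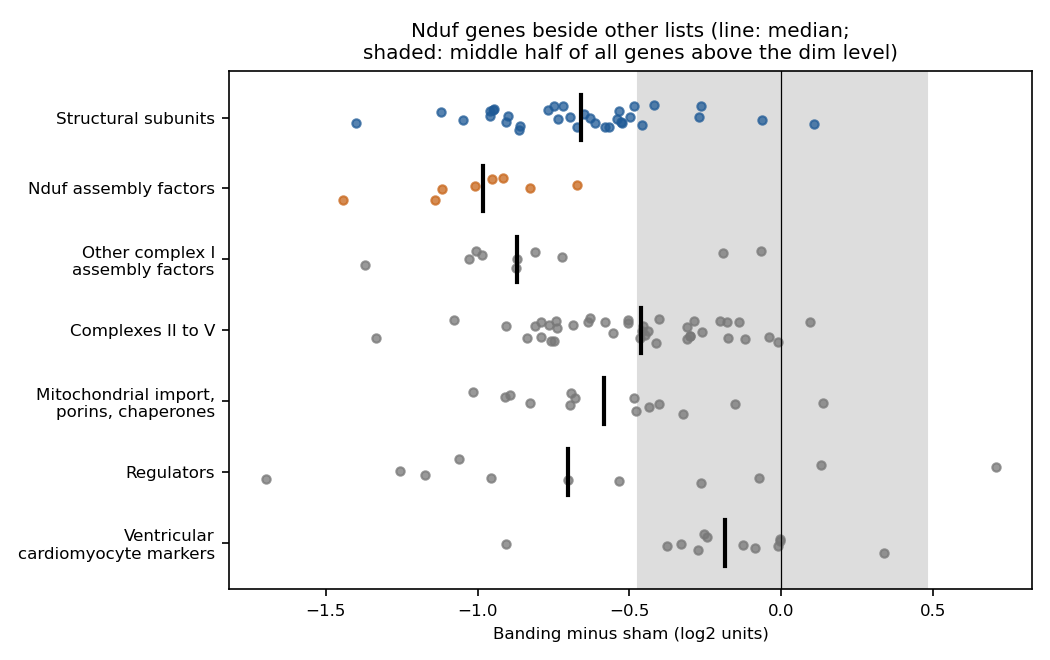
Banding minus sham difference in log2 units (horizontal axis) of each gene (points, spread vertically for legibility) in 7 lists, with the list median as a black line; the shaded band, -0.47 to 0.48, is the interquartile range of all genes above the dim level. Medians are -0.66 for structural subunits, -0.98 for Nduf assembly factors, -0.46 for complexes II to V and -0.18 for ventricular cardiomyocyte markers.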

How the data were processed

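Right ventricular RNA was measured on one-colour Affymetrix arrays, 5 labelled banding and 4 labelled sham. The authors deposited 1 log2 expression value for each probe set and array. RMA and GCRMA, which correct background and normalise across arrays, appear in the submitters' processing notes with no role stated. Values ran between 2.20 and 16.43, as log2 values do. Of 45101 probe sets, 64 controls, 9160 that name no gene and 932 that name several were left out, and 34945 remained for 18193 genes. Array medians were 3.23 to 3.31, and precision is limited by how few arrays there are.

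The contrast of banding against sham was fitted by lmFit and eBayes of limma 3.58.1 (R 4.3.3), no covariate, two-sided, adjusted over all genes; tables and figures used Python 3.11.15. On simulated data for 18193 genes, 50 of them changed per size, the fit called 4% at 0.25, 38% at 0.5, 80% at 1 and 100% at 2 log2 units. Among the genes left unchanged there were 6 false calls. Far fewer genes changed in that simulation than the 38.4% that passed in the data. The adjustment depends on the share of changed genes, so these rates cannot be carried over to the real contrast. A gene is dim where its group mean is under 4.20. Single probe sets were fitted separately. Every Nduf gene could be named; array values are given for core subunits, the 8 structural genes with the smallest p, those not passing, the 3 largest and 3 smallest called differences, assembly factors, Ndufa4 and Ndufa4l2, and other lists are represented by up to 4 members with the smallest p and by every regulator. The array values of Ppargc1a, Yy1 and the second Ndufb6 probe set were chosen for print after they were seen. The members and lists were chosen with earlier results of these data known. The alternatives were other probe set choices, a filter on dim genes, other scalings, another variance model, left-out arrays and a replicate block.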

Additional observations from a re-analysis of the deposited data

Results flagged for a closer look

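In 4 of 87 groups of a Nduf gene, an array lay far from the others of its group by Dixon's test, which flags about 1 in 20 groups by chance. In Ndufaf3, banding replicate 1 read 9.57, against 9.11 to 9.21 on the other banding arrays. In Ndufa7, sham replicate 3 read 13.61, against 13.36 to 13.37 on the other sham arrays. In Ndufa9, sham replicate 3 read 14.32, against 14.25 to 14.26 on the others. In Ndufb4, sham replicate 2 read 2.44, while the other sham arrays lay at the floor of 2.20. Ndufaf3, Ndufa7 and Ndufa9 passed without any 1 array.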

How the results depend on the processing

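Leaving out each array in turn left 32 structural subunits and 8 assembly factors lower, with medians of -0.71 to -0.63 and -1.05 to -0.95. All genes past the threshold numbered 6270 to 6701 in these fits and 6989 with all arrays. Without _x_at, _s_at and _a_at probe sets, 23 of 27 structural subunits and 6 of 6 assembly factors fell. Under that setting Ndufb2 differed by 0.0015 (adjusted p = 1) and Ndufb6 by -0.48, and Ndufa12 (-0.08) and Ndufb8 (-0.49) did not pass; Ndufb2, Ndufa12 and Ndufb8 then rest on probe sets near or below the dim level. With the mean of all probe sets 33 structural subunits fell, Ndufb6 among them at -0.18. The other 733 values of a single gene under an alternative kept their side of the threshold and their direction, save that Ndufb4, without sham replicate 2, lay at the floor on every array and had a difference of 0. The labels number replicates without saying that numbers pair arrays, and same-numbered deviations correlated at -0.03 to 0.04. With the replicate number as a block, 32 structural subunits and 8 assembly factors fell, and 5277 genes passed.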
